A study of Mus musculus with 5 samples.

Results

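The genes described are 10 genes of activin and TGF-beta signalling, taken by symbol from the pathway with earlier results of these data known: the ligand genes Inhba, Tgfb1, Tgfb2 and Tgfb3, the antagonist gene Fst, the receptor genes Tgfbr1 and Tgfbr2, and the Smad genes Smad2, Smad3 and Smad7. All 10 were among the 10664 genes analysed. Expression was measured by RNA-seq in keratinocytes sorted from mouse skin wounds at day 5 after wounding, from 2 Nrf2 conditional knockout (cKO) libraries of genotype K14Cre-ER; Nrf2 flox/flox and 3 wild-type (WT) littermate libraries of genotype K14Cre-ER; Nrf2 +/+. Both groups therefore carry the keratin 14-driven, inducible Cre, and deletion is directed only at cells that use that promoter. The sort kept live CD49f-positive cells and removed cells stained for blood lineages. Each gene has 1 set of values from a comparison the authors made between the genotypes. It holds the log2 fold change, the mean level as reads scaled to library size (CPM), the p-value and its adjusted form, the false discovery rate (FDR). All fold changes, levels and FDRs below come from the authors' deposited table, with fold changes given as cKO relative to WT. No value per library was analysed here, so no spread between libraries can be given. The labels do not say whether libraries came from separate animals, so any spread between libraries that entered the p-values may be technical.

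Activins and TGF-betas are secreted dimers that bind paired serine/threonine kinase receptors, a type II receptor that binds the ligand and a type I receptor that it activates. The type I receptor phosphorylates Smad2 and Smad3, which join Smad4, enter the nucleus and change transcription, and Smad7 is a product of that response that inhibits the receptor. Follistatin, the product of Fst, binds activin and blocks it. In skin, activin A, the dimer of the Inhba product, is strongly induced by wounding and promotes repair and scarring, while TGF-beta restrains keratinocyte proliferation and drives matrix production.

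Of the 10 genes 1, Inhba, was lower in cKO at an FDR under 0.05, and 0 were higher, in the authors' deposited table. Over all genes, 2.15% were called lower, 0.459% higher and 2.61% in either direction. Inhba fell by 4.55 on the log2 scale, a 23.4-fold difference. The other 9 genes had log2 fold changes of cKO relative to WT between -1.27 and 0.44 and an FDR over 0.05. The second activin subunit gene, Inhbb, is not one of the 10 and belongs to a list of other ligands of the family. It fell by 5.08 on the log2 scale (FDR 0.00134 in the authors' deposited table). The receptors and Smads that carry the signal had values from -0.56 to 0.44.

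The promoters of both activin subunit genes are shown because these were the ligand genes that fell. Each is 250 bases before the transcription start, 5′ to 3′ on the gene's strand, from RefSeq on GRCm38.p6. The Inhba window is chr13:16011601-16011850 on the plus strand and the Inhbb window is chr1:119422249-119422498 on the minus strand.
Inhba: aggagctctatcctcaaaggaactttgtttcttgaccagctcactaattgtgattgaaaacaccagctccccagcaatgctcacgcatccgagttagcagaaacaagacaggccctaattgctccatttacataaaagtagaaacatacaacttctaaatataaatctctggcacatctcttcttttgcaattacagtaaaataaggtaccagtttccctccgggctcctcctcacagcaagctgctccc
Inhbb: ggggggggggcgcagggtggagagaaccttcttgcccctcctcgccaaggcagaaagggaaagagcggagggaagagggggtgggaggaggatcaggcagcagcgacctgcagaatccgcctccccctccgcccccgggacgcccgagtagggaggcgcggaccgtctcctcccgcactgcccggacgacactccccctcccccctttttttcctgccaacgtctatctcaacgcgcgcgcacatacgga
Capitals were reserved for matches on either strand to 3 motifs, and neither window holds one. The motifs were the antioxidant response element core TGACNNNGC, to which NRF2 binds with a small Maf protein, the AP-1 site TGACTCA or TGAGTCA, and the cAMP response element TGACGTCA. The antioxidant element and the AP-1 site can overlap. Among 32817 promoter windows of that length, 10.2% held the antioxidant element core, 4.46% the AP-1 site and 1.55% the cAMP response element. Absence of these letters says nothing about binding elsewhere.

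RefSeq windows matched 6 of the 10 genes, with 7 windows in all since Tgfbr1 has a pair of starts. Matches to the antioxidant element core were found in a window of each receptor gene, shown in capitals with 25 bases on each side. The Tgfbr1 stretch is chr4:47352983-47353041 on the plus strand and the Tgfbr2 stretch is chr9:116175522-116175580 on the minus strand. The matches begin 214 and 192 bases before the start.
Tgfbr1: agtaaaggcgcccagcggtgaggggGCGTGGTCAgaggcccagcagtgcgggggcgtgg
Tgfbr2: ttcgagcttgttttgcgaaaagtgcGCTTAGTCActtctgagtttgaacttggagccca
Neither receptor gene was called, with log2 fold changes of -0.56 and 0.16 in the authors' deposited table. The windows of Smad3, Tgfb1 and Tgfb2, and the second window of Tgfbr1, held no match to any of the 3 motifs.

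Inhba (ENSMUSG00000041324, protein-coding, chr13:16011851-16031621, plus strand, mm10) changed by -4.55 on the log2 scale around a mean of 8.06 CPM, with p = 2.87e-07 and FDR 0.000102 in the authors' deposited table. The fold change and p together imply a standard error of 0.89 and a 95% interval of -6.29 to -2.81. By p the gene ranked 30 of 10664. With equal weight given to each genotype, these values imply 15.5 CPM in WT and 0.660 CPM in cKO. These are levels worked out from the deposited values, not measured per genotype. With weights of 2 cKO and 3 WT libraries they would be 13.1 and 0.558 CPM. Among 1649 other genes within 0.5 log2 units of its level, 10 fell by at least as much and 0 rose by as much. Overlapping genes B230303A05Rik and Gm48444 are annotated on the minus strand at this locus and were not analysed here. The sources used here do not give whether counting used strand, and overlap was judged from whole gene spans, not exons. Whether reads of these genes were counted for Inhba is therefore not known.

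Inhbb (ENSMUSG00000037035, protein-coding, chr1:119415465-119422248, minus strand, mm10) encodes the subunit of activin B, and with the Inhba product it forms activin AB. Its mean level was 3.38 CPM and its implied 95% interval was -7.31 to -2.85. The implied levels were 6.56 CPM in WT and 0.194 CPM in cKO with equal weights. Among 927 other genes within 0.5 log2 units of its level, 13 fell by at least as much and 2 rose by as much. Library depth is unknown, so the number of reads behind the cKO level cannot be given. The fold change of so low a gene can depend on the pseudocount named in the title of the authors' deposited table. Both limits also hold for Inhba, with an implied 0.660 CPM in cKO at equal weights.

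The 3 TGF-beta genes all had values below 0, as did 5299 of all 10664 genes, and none was called. Other genes within 0.5 log2 units of their levels had medians of -0.19 for Tgfb1, -0.12 for Tgfb2 and -0.17 for Tgfb3. Tgfb2 (chr1:186622792-186705989, minus strand, mm10) had the lowest, -1.27 at 12.9 CPM, with p = 0.0766, FDR 0.741 and an implied 95% interval of -2.68 to 0.14 in the authors' deposited table. Tgfb3 (chr12:86056745-86079041, minus strand) had -0.91 at 6.56 CPM, with an interval of -2.32 to 0.50. Tgfb1 (chr7:25687002-25705077, plus strand), the isoform best known from platelets and macrophages in wounds, had -0.76 at 5.38 CPM, with an interval of -2.18 to 0.67. Tgfb2 overlaps Gm29491 and Tgfb3 overlaps the protein-coding gene Ttll5, both on the opposite strand, with the same uncertainty as at Inhba. The intervals overlap each other, so no order among the 3 isoforms can be read from these fold changes. Each interval holds both 0 and -2 on the log2 scale, so neither no change nor a 4-fold fall of a TGF-beta gene could be told from its value. The interval of Inhba ends at -2.81, below the lower bounds of Tgfb1, Tgfb2 and Tgfb3, but the differences between these genes were not tested.

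Fst (chr13:114452290-114458951, minus strand) lay at -0.82 on the log2 scale and 45.6 CPM, with p = 0.231, FDR of 1 and an implied interval of -2.17 to 0.52 in the authors' deposited table. The interval does not overlap that of Inhba, but neither interval shows variation between libraries. The log2 fold change of Inhba was 3.73 lower than that of its antagonist in the same comparison, a difference that was not tested. Gm47040, annotated as antisense to Fst, overlaps it.

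Of the receptors, Tgfbr1 (chr4:47353222-47414931, plus strand, mm10), the type I receptor kinase for TGF-beta, had -0.56 at 44.0 CPM, with an implied interval of -1.91 to 0.79 in the authors' deposited table. Tgfbr2 (chr9:116084293-116175360, minus strand), the type II receptor, had 0.16 at 92.9 CPM with an FDR of 1. Smad2 (chr18:76241580-76310963, plus strand), a signal-carrying Smad, had 0.44 at 61.3 CPM, with an interval of -0.77 to 1.65. Its partner Smad3 (chr9:63646767-63757994, minus strand) had 0.37 at 14.4 CPM, with an interval of -0.84 to 1.58. Smad7 (chr18:75367529-75395935, plus strand), the inhibitory Smad, had -0.11 at 43.3 CPM with an FDR of 1. For Tgfbr2 and Smad7 no interval is given, since a standard error worked out from a fold change this near 0 is unstable. A p that misses the threshold does not show that these 5 genes were equal in both genotypes.

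**Figure D1:**
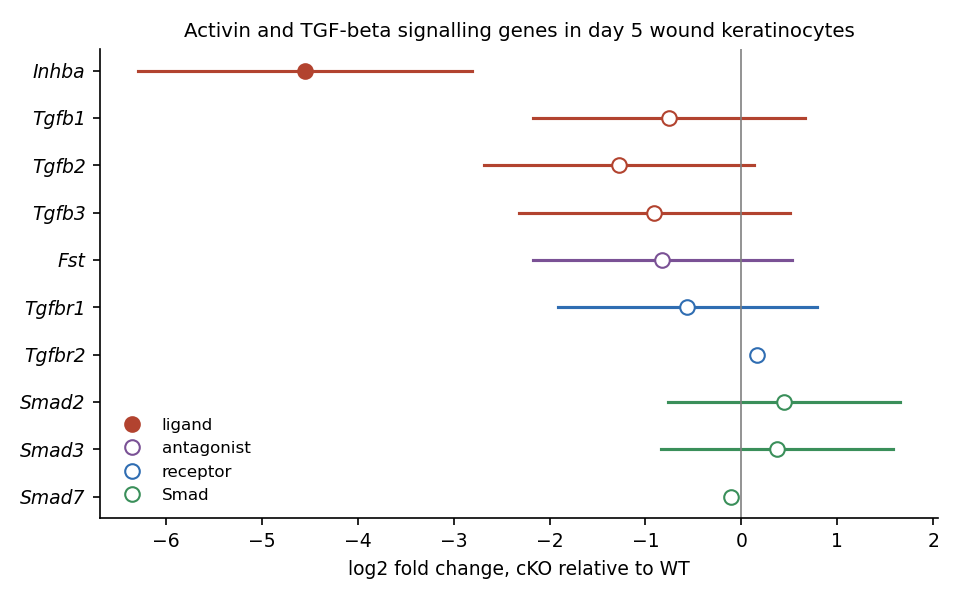
Log2 fold change of cKO relative to WT (x axis) for the 10 genes, by role, with 95% intervals implied by the deposited p-values where the fold change was at least 0.2 in size. The filled point has an FDR under 0.05: Inhba lies at -4.55 and the other 9 genes lie between -1.27 and 0.44.

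The p-values behind these intervals follow fold and level closely. Among 31 genes within 0.1 of the log2 fold change of Fst and 0.5 of its log2 level, the implied standard error ran from 0.683 to 0.694, against 0.688 for Fst. For the 96 genes close to Tgfbr1 it ran from 0.683 to 0.699, against 0.689. The deposited error is therefore close to a common one for genes of that fold and level, and does not show how each gene varied between libraries. No gene lay within those limits of Inhba, so this could not be looked at for it in that way. The 1 gene within those limits of Inhbb had 1.1383, against 1.1385 for Inhbb. The interval of Inhba, too, cannot be taken to show how it varied between libraries.

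**Figure D2:**
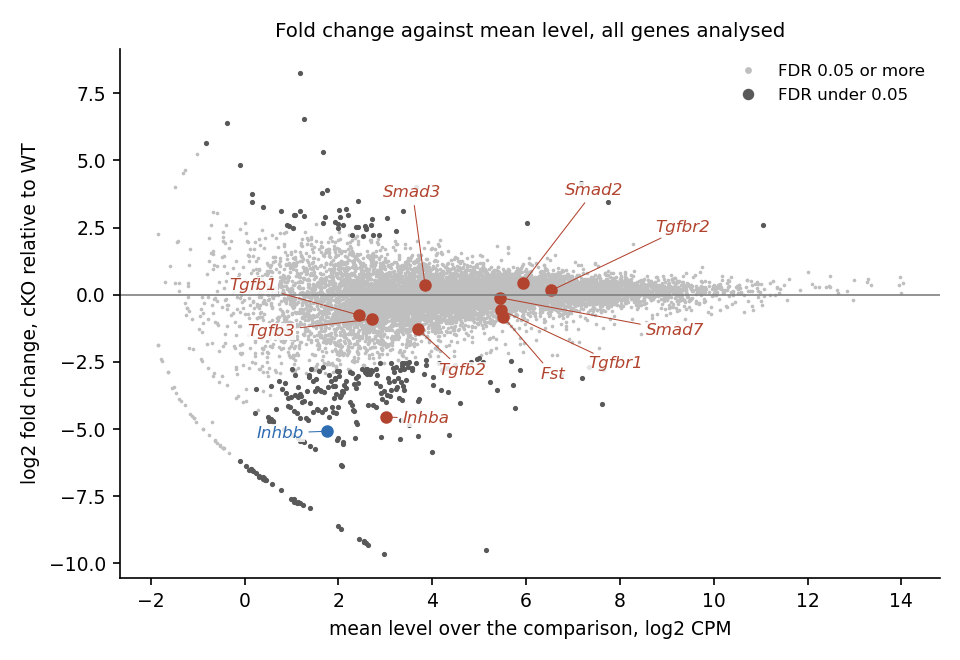
Log2 fold change of cKO relative to WT (y axis) against mean level in log2 CPM (x axis) for 10664 genes, with genes at an FDR under 0.05 in dark grey, the 10 genes in red and Inhbb in blue. Inhba and Inhbb lie among the called genes below 0, while the other 9 lie within the grey cloud; the curved lower edge holds genes near 0 in cKO, and neither activin gene is on it.

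Around these genes, the wider pathway was read from 6 lists of known pathway genes, of which 90 genes were analysed. The lists, too, were drawn up with earlier results of these data known. Of these, 12 were called lower and 0 higher, beside 2.15% and 0.459% of all genes, and the median log2 fold change was -0.17 against 0.00 over all genes. Of the 12, 5 also stand on a marker list for fibroblasts or endothelial cells, and 7 of the other 85 genes were called. These marker lists are short, so absence from them does not show that a gene is not expressed in those cells.

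For each list below, the share of all genes called lower was 2.15%. Among other ligands, 1 of 6 analysed genes was lower, Inhbb. Bmp1, a protease that processes collagens and despite its name no BMP ligand, had -1.27, and Bmp2, Bmp7, Bmp4 and Bmp3 had 0.36, 0.29, 0.11 and -0.08 in the authors' deposited table. These 4 BMP ligand values lay within 0.4 of 0. Among other receptors and co-receptors, 1 of 8 was lower: Eng, the endothelial TGF-beta co-receptor endoglin, fell by 3.91 (FDR 0.00119 in the authors' deposited table), at a locus that overlaps Fpgs on the other strand. Acvrl1, its type I receptor partner in endothelial cells, had -2.49 with FDR 0.0845, and Acvr1 had -0.51. The activin receptor genes Acvr1b and Acvr2a had values of 0.41 and -0.13.

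Of 15 analysed genes for extracellular antagonists and the handling of latent TGF-beta, 3 were lower. Dcn, the proteoglycan decorin that binds TGF-beta, fell by 4.23, Fbn1, the fibrillin on which latent TGF-beta is stored, fell by 3.35, while Bgn, the gene of the proteoglycan biglycan, was 8.01-fold lower, by the authors' deposited table. Thbs1, whose product activates latent TGF-beta, had -0.28 at 885 CPM. The activin-binding Fstl3 had 0.44, and the integrin genes Itgav, Itgb6 and Itgb8, whose products release latent TGF-beta, had 0.30, -0.11 and -1.49. None of 20 other Smads and Smad regulators was called, with a list median of 0.00 and values from -0.78 for Ep300 to 0.73 for Wwp1. In the same list Smad4 had 0.37 in the authors' deposited table.

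Response genes of TGF-beta and activin had 7 of 38 called lower, beside 2.15% of all genes, and a median of -0.55. Values were below 0 in 32 of them, beside 5299 of all 10664 genes. The called genes included Timp1, an inhibitor of metalloproteinases, by -5.30 on the log2 scale, the metalloproteinase genes Mmp9 and Mmp13 by -4.83 and -3.94, and the collagen genes Col3a1, Col1a2 and Col1a1 by -4.05, -3.12 and -2.67, all in the authors' deposited table. The 3 collagen genes stand on the short fibroblast marker list, and without them 4 of 35 were called with a median of -0.48. Smad-dependent feedback genes, chosen after their values were seen, had values near 0: Skil, a Smad repressor, 0.13 at 355 CPM, and Pmepa1, which sequesters Smads, -0.10 at 84.5 CPM. Of these response genes, Cdkn1a, a cell cycle inhibitor, had -0.06 and Cdkn2b, another, 1.05 with FDR 0.880 in the authors' deposited table. For BMP response genes 0 of 6 were called, with a median of -0.91. Values were below 0 in 4, among them Id4 and Id3, inhibitors of helix-loop-helix factors, at -1.69 and -1.10. Msx2 and Dlx3 lay above 0, at 0.61 and 0.17.

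**Figure D3:**
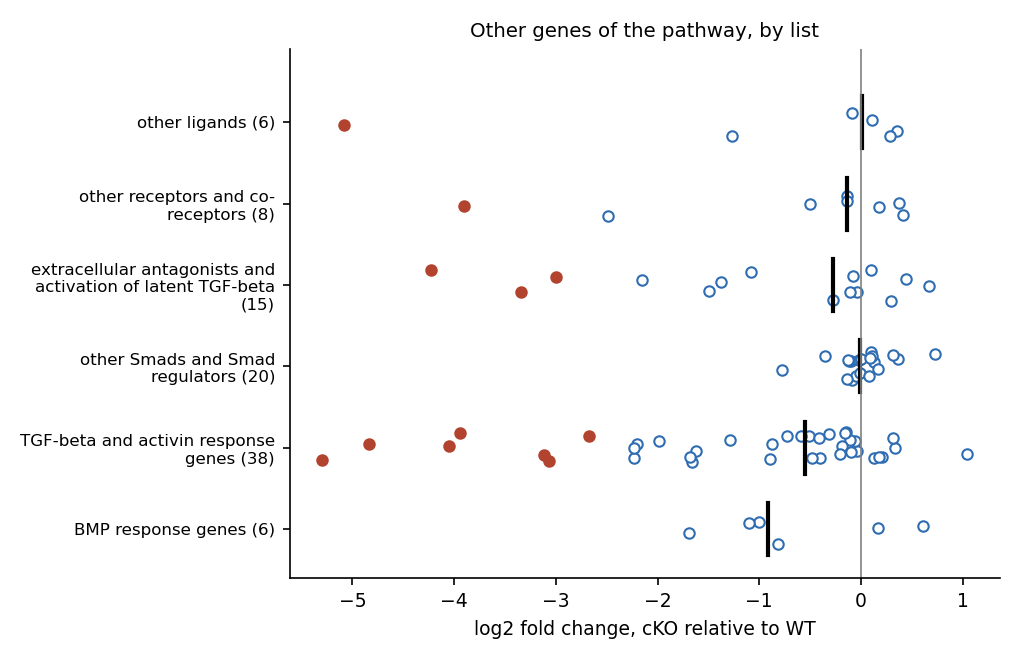
Log2 fold change of cKO relative to WT (x axis) for each analysed gene of 6 pathway lists, with the number analysed in brackets; filled points have an FDR under 0.05 and the bar is the list's median. All 12 called genes, each on 1 list, lie below -2.6, and the Smad list lies between -0.78 and 0.73.

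Markers of other cells fell in the same comparison. Of 9 analysed endothelial markers 7 were lower, with a median of -3.64, and their summed implied level was 164 CPM in WT and 17.0 in cKO. Of 10 fibroblast markers listed 6 were analysed, and Lum, Pdgfra, Pdgfrb and Fap were not. The 4 called lower, Dcn, Col3a1, Col1a2 and Col1a1, all encode secreted matrix proteins. Thy1 and Postn, at -1.09 and 0.19, were not called. The 6 had a median of -2.89 and summed implied levels of 1239 CPM in WT and 344 in cKO. Pericyte and smooth muscle markers had 0 of 5 analysed genes called and a median of -1.35. Of 9 macrophage markers listed 2 were analysed and 0 called, Cd68 at 1.46 and Itgam at -0.61. Keratinocyte markers had 0 of 9 called, a median of -0.24 and summed implied levels of 15225 CPM in WT and 17468 in cKO. Without Dsp, a desmosomal gene that makes up most of that sum, the other 8 came to 6144 and 5773 CPM. The fall of Inhba was 1.66 beyond the median of the fibroblast markers and 0.91 beyond that of the endothelial markers. The implied interval of Inhba, -6.29 to -2.81, holds both medians. It does not show variation between libraries, so whether the fall differs from either median was not tested. The called fibroblast markers also stand on the pathway lists, so the markers and the pathway genes are not independent sets. Single fibroblast markers ran from -4.23 to 0.19 and single endothelial markers from -5.39 to -2.10. The part of these cells in the falls of Inhba, Inhbb and the response genes was not tested. In such bulk samples, fewer cells of a type and less RNA per cell cannot be told apart.

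**Figure D4:**
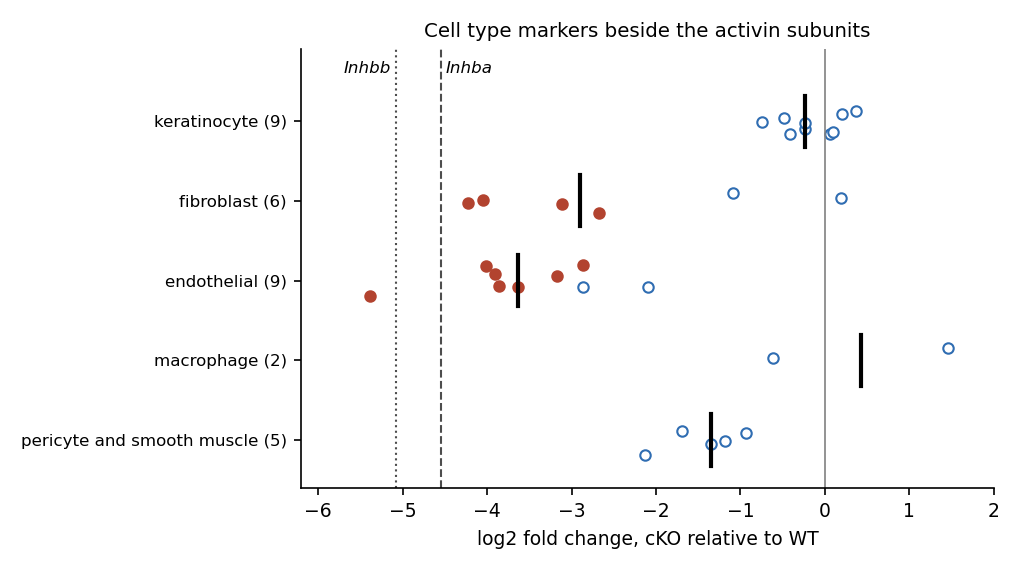
Log2 fold change of cKO relative to WT (x axis) for markers of 5 cell types, with the number analysed in brackets, filled points at an FDR under 0.05, bars for medians, and lines at Inhba and Inhbb. The keratinocyte markers lie between -0.74 and 0.37, while 11 endothelial and fibroblast markers were called lower.

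The targeted gene Nfe2l2 had -1.99 at 189 CPM with FDR 0.126 in the authors' deposited table, lower in cKO as labelled but short of the threshold. Sex-linked genes differed as well, with Ddx3y, on the Y chromosome, at -9.51 (FDR 1.71e-11) and Xist at 2.58 (FDR 0.00557). The labels do not state the sex of the mice, and sex and genotype cannot be told apart for any gene above.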

How the data were processed

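RNA-seq libraries of sorted day 5 wound keratinocytes, 2 cKO and 3 WT, were compared by the authors. The submitters' processing notes name Trimmomatic 0.35, STAR 2.6.0c and RSEM, and mm10 as the build. The deposited log2 fold change, log2 CPM level, p-value and FDR per gene were used as given, per the file headers. The tool of the comparison and the libraries it used are not given in the sources used here. The header gives the level as CPM while the title of the table speaks of TPM. Whether levels were scaled by gene length is therefore unsure. The marker sums, the part of Dsp in them and the sets of genes of like level use the levels as deposited. They could differ under another scaling. Levels are otherwise not compared between genes. Library depth is unknown. Notes beside 2 negative entries of the second sheet gave the sign, and all fold changes were turned to cKO relative to WT. The authors' FDR was recomputed by the Benjamini-Hochberg method over 10664 genes (largest difference 7.17e-15).

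Standard errors were the fold change divided by the normal quantile of the p-value. Implied levels assume equal weights of the genotypes. No limma fit, leave-one-out or list test was run, since no value per library was analysed. The 10 genes and the lists were chosen with earlier results of these data known. Named genes were the 10, every listed gene with FDR under 0.05, up to 3 per list with the smallest p, and Nfe2l2; other genes were named after their values were seen. A further result that this rule would name is left out of the text. Symbols and positions came from GENCODE vM21 (10655 genes matched), and promoter windows from RefSeq. The scripts, tested on simulated data, used SciPy 1.17.1, pandas 2.3.3 and NumPy 2.4.6 in Python 3.11.15, with matplotlib 3.10.9.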

Additional observations from a re-analysis of the deposited data

How the results depend on the processing

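The count of 1 called gene among the 10, Inhba, was the same under the Benjamini-Yekutieli adjustment, level filters of 5 CPM and 1 CPM, removal of genes with an implied level under 0.05 CPM in 1 genotype, a threshold of 0.01 and an added fold threshold of 1 on the log2 scale. The fold threshold could change no count, since every called gene changed by at least 2.20 on the log2 scale. The threshold of 0.01 could not end the call of Inhba, whose FDR was 0.000102. The adjusted p of Inhba ranged from 1e-04 to 0.00100 over the 4 settings that readjust. Of the 12 called genes of the wider pathway, these settings gave counts of 10 to 12, and the count was 7 when genes on marker lists of other cells were left out, a setting chosen after the data were seen. For 33 named genes 129 adjusted p-values were recomputed. Only Inhba and the 12 called genes of the wider pathway had a call to lose. Most of the others lay far above the threshold, where the call could hardly change. Of the 129, 127 gave the call as before and 2 ended it, both under the Benjamini-Yekutieli adjustment, among them that of Col1a1 (adjusted p = 0.145). That adjustment is stricter by construction, and can add no call. The filter of 5 CPM removed Inhbb, Acvrl1 and Id4. Centring on the median of all genes moved fold changes by 0.004 or less, so it could reverse none of the called values. No paired analysis was possible because no value per library was analysed, and for the same reason single libraries were not left out. Over all genes no call was made below 2.20 in size on the log2 scale, so smaller changes of TGF-beta, receptor and Smad genes could not be called at these levels.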
